A study of Mus musculus with 12 samples.

Results

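The genes described here are 10 of the ephrin and Eph receptor family, picked by name as the rows Efna1, Efna2, Efna5, Efnb1, Efnb2, Epha2, Epha4, Ephb2, Ephb3 and Ephb4 of a count table of 56941 genes. Of these, 5 encode ephrins and 5 encode Eph receptors. The table holds 22 genes of the family in all, and the other 12 are given beside the chosen ones where a comparison needs them. Each name belonged to 1 Ensembl identifier.

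Eph receptors form the largest family of receptor tyrosine kinases, and their ligands, the ephrins, are held in the membrane of the neighbouring cell, so the pair works where cells touch. Ephrins of the A class are anchored by a lipid and mostly bind EphA receptors, while those of the B class span the membrane and mostly bind EphB receptors. Binding signals into both cells, forward through the receptor's kinase and reverse through the ephrin, and commonly changes adhesion, spreading and migration through the actin cytoskeleton. In muscle the system is known from the guidance of motor axons in the limb, from neuromuscular synapses and from the movement of satellite cells.

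Expression was measured by RNA sequencing in C2C12 cells, a mouse myoblast line whose cells fuse into myotubes. The ChR2 line carries ChR2::tdTomato, which joins channelrhodopsin-2, a light-gated cation channel, to a red fluorescent protein, and the wild-type line was grown in the same way. Each line gave 6 wells with 1 library each. Both lines lay on a fibrin layer 1 mm deep (8 mg of fibrinogen per mL) and received growth medium with aminocaproic acid for 2 days. For the next 6 days the medium was one for differentiation, in which horse serum replaced fetal bovine serum and IGF-1 was added beside the aminocaproic acid. The labels mention no illumination of the wells, and they do not say whether the ChR2 line is 1 clone. A comparison of 2 lines cannot tell an effect of the transgene apart from any other difference between the lines. No label says whether the wells of a line were seeded from independent cultures, so the spread behind each p-value is that among wells and may be technical.

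Estimated counts summed to between 7388761 and 12229458 per ChR2 library and between 10268067 and 13628569 in wild-type wells 1, 3, 4 and 6. Wild-type wells 2 and 5 stood apart, with totals of 1061068 and 2809669, and with 24.8% and 8.37% of their counts on 7SL RNA, against at most 0.0341% in any other well. The protocol has low-input samples pass through ribosomal depletion without saying whether these wells are among them. Each test of the chosen genes is therefore given with and without them. Markers of muscle were abundant: the summed level of the 7 myotube markers, in CPM (counts relative to the scaled size of the library), was 7804 to 9260 in ChR2 wells and 6842 to 19343 in wild-type wells. Without wild-type wells 2 and 5 the highest wild-type sum was 10635 CPM. Of these 7, Myog and Ttn were lower in ChR2 wells at an adjusted p under 0.05 by edgeR, or 28.6% beside 28.1% of all genes tested. Without wild-type wells 2 and 5 Mymk was lower too, or 42.9% beside 35.2%. Myh3, Ckm and Acta1 had log2 fold changes of 0.58, 0.50 and 0.19 over 12 libraries, and Actn3 −0.29. None of these was called by edgeR over either set of libraries, while limma voom called 1 myotube marker higher and 3 lower. Of the 7 markers of myoblasts and progenitors, Myf5 and Vcam1 were higher and Cdh15 and Des lower over 12 libraries, or 57.1% beside 28.1% of all genes. Without wild-type wells 2 and 5 Cdh15 alone was called, still lower, or 14.3% beside 35.2%. Of the 6 tested fibroblast markers Mfap5, Fbln1 and Col3a1 were higher in ChR2 wells, or 50%, where 14% of all genes tested were higher. The same 3 were higher without wild-type wells 2 and 5, where 18.9% of all genes were. Dcn, Pdgfra and Col1a1 were called by edgeR over neither set, with log2 fold changes of 0.62, −0.27 and −0.19 over 12 libraries. Fibroblast markers summed to 2810 to 3438 CPM in ChR2 wells and 745 to 3212 CPM in wild-type wells. Col3a1 alone averaged 2442 CPM in ChR2 wells and 1348 CPM in wild-type wells. All 5 markers of proliferating cells were higher as well, with sums of 490 to 692 CPM in ChR2 wells and 61.6 to 377 CPM in wild-type wells. Schwann and neural markers summed to 23.6 to 25.9 CPM in ChR2 wells and 6.55 to 14.5 CPM in wild-type wells, with Snap25 at 0 counts in every well. The 7 endothelial markers, which matter because Efnb2 and Ephb4 are best known from blood vessels, summed to 2.06 to 3.47 CPM in ChR2 wells and 1.75 to 4.99 CPM in wild-type wells, and Tie1 and Emcn were at 0 counts in every well. The part of these cell types in the results below was not tested, and in bulk RNA fewer cells of a type and less RNA per cell cannot be told apart.

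All 10 chosen genes passed the filter on low counts. Over the 12 libraries, 3 of the 10 differed between the lines at an adjusted p under 0.05. Efna5 was higher in ChR2 wells, and Efnb1 and Ephb3 were lower. That is 30% of the chosen genes, close to the background of 28.1% of the 13168 genes tested, of which 14% were higher and 14.1% lower in ChR2 wells. These same 3 genes had wells that did not overlap between the lines, a pattern seen in 15.1% of all tested genes, 8.57% with ChR2 wells higher and 6.52% with ChR2 wells lower. The median log2 fold change of the 10, ChR2 over wild type, was −0.28, beside −0.02 for all tested genes. Without wild-type wells 2 and 5 the background was 35.2% of 13484 genes, and 6 of the 10 differed: Efna5, Efnb2 and Ephb4 were higher, and Efna2, Efnb1 and Ephb3 lower. The median log2 fold change of the 10 was then −0.15. Ephb4 changed its direction between the sets of libraries. Of the other 12 family genes 5 were tested over the 12 libraries, and Ephb6 alone passed, higher in ChR2 wells, or 20% beside 28.1%. Without wild-type wells 2 and 5, 6 were tested, with Ephb6 higher and Efnb3 lower, or 33.3% beside 35.2%. On the TPM scale, which corrects for both depth and transcript length, over all 12 libraries the split of calls was very different, with 578 genes higher and 29 lower in ChR2 wells and a median log2 difference of 0.35.

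**Figure D1:**
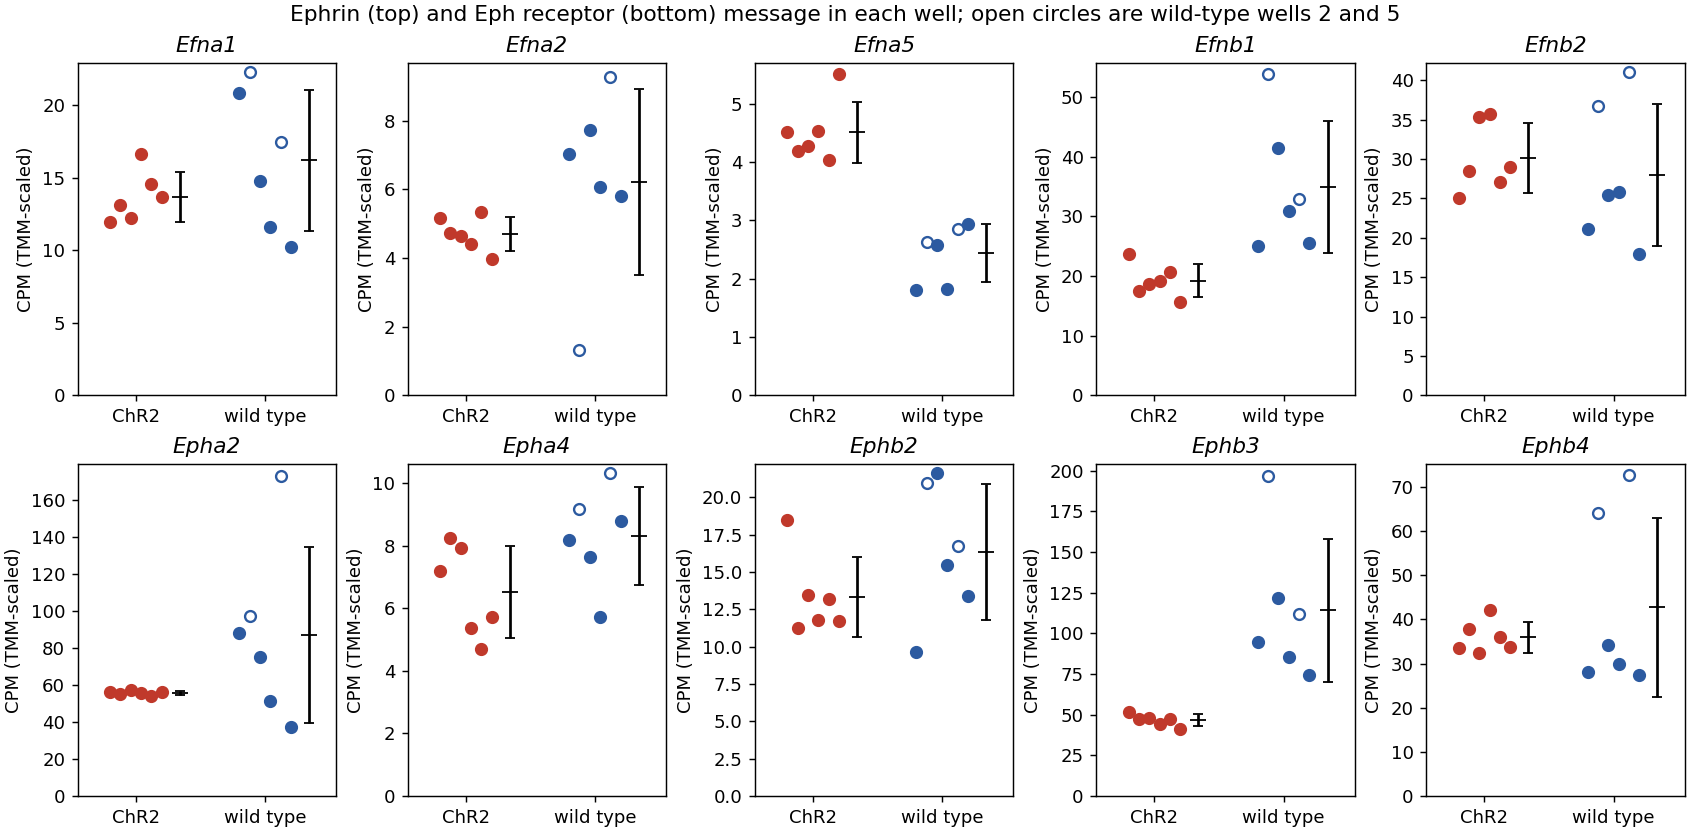
Level of each of the 10 chosen genes in every well, in CPM on scaled library sizes, with 1 panel per gene, ChR2 wells left of wild-type wells, open circles for wild-type wells 2 and 5, and the mean ± SD of each line beside its points. In Efna5, Efnb1 and Ephb3 no ChR2 well overlaps a wild-type well, whereas Epha2 spans 53.7 to 57.0 CPM in ChR2 wells and 37.0 to 173 CPM in wild-type wells.

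Among the receptors that bind B-class ephrins, and among the 10 genes over 12 libraries, Ephb3 had the smallest adjusted p. Ephb3 is a receptor tyrosine kinase which, together with Ephb2, sorts cells along the mouse intestinal crypt. Its levels (ENSMUSG00000005958) ran from 41.2 to 51.7 CPM with a median of 47.2 in ChR2 wells, and from 74.5 to 197 CPM with a median of 103 in wild-type wells. The highest ChR2 well lay below the lowest wild-type well, and wild-type well 2 was the highest of all. Ephb3 averaged 46.5 ± 3.58 CPM in ChR2 wells and 114 ± 43.9 CPM in wild-type wells (SD, n = 6 each), and edgeR's fitted ratio of ChR2 to wild type was 0.419 with a 95% interval of 0.316 to 0.555. The log2 fold change was −1.26 (SE 0.19, adjusted p = 0.00043 by edgeR's quasi-likelihood test). Leaving out wild-type wells 2 and 5 brought the wild-type mean to 94.1 ± 20.1 CPM (n = 4), and the fitted ratio to 0.501 with an interval of 0.422 to 0.596 (adjusted p = 4.75e-05).

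The promoters of the 3 genes called over 12 libraries are shown because these genes moved in different directions. Each is the RefSeq window on GRCm38.p6 from 250 bases before to 50 bases after the start of the gene, read along the gene's own strand. Capitals mark the E-box CAGCTG, a form recognised by myogenic factors such as MyoD, and the GC box GGGCGG, on either strand, so that a GC box on the other strand reads CCGCCC.
Ephb3, chr16:21204545-21204844, plus strand: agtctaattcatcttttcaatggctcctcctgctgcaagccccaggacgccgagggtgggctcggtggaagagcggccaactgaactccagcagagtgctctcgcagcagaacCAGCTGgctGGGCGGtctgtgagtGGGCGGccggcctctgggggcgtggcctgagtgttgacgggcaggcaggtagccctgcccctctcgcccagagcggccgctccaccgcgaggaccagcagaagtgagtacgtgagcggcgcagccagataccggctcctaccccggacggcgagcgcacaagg
Efnb1, chrX:99135811-99136110, plus strand: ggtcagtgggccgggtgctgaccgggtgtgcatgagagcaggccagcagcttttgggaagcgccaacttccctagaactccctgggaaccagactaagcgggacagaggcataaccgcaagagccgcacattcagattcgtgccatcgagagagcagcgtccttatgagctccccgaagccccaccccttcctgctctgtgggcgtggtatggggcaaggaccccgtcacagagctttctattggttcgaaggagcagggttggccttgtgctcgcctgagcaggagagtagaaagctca
Efna5, chr17:62881268-62881567, minus strand: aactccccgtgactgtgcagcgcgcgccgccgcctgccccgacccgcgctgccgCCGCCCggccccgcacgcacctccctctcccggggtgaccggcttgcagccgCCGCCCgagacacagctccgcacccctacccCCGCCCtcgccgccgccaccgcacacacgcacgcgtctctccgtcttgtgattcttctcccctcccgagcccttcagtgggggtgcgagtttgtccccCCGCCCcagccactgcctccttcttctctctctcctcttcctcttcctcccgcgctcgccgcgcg

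The Ephb3 window held 1 CAGCTG and 2 GC boxes, the Efna5 window held 4 GC boxes and no CAGCTG, and the Efnb1 window held neither. CAGCTG was present in 16.3% and GGGCGG in 35.7% of 32851 promoter windows of the same length, searched on both strands. The general E-box CANNTG, of which CAGCTG is one form, was present in 72.3% of them, so a match to it says little. The windows were 66.7% G and C for Ephb3, 59.7% for Efnb1 and 73.3% for Efna5, beside a median of 52.7% over all windows. The search also covered the TATA box as TATAAA, present in 13.6% of all windows, the CAAT box as CCAAT in 37.4%, the AP-1 motif as TGANTCA in 7.81% and the MAF motif as TGACNNNGC in 12.4%. Of these, the Efnb1 window held 1 CCAAT and the Efna5 window 1 TGACNNNGC, and the Ephb3 window held 2 CANNTG, one of them the CAGCTG shown. A match describes the letters and is not evidence that a factor binds there.

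Ephb6, a family receptor whose kinase domain is inactive, moved the other way. Its levels were 22.7 to 33.6 CPM with a median of 28.2 in ChR2 wells, and 6.03 to 19.7 CPM with a median of 12.1 in wild-type wells. No wells overlapped. Ephb6 averaged 28.1 ± 4.04 CPM in ChR2 wells and 12.6 ± 4.47 CPM in wild-type wells (SD, n = 6 each), and its log2 fold change was 1.26 (SE 0.20, adjusted p = 0.000628), or 1.39 (adjusted p = 0.000224) without wild-type wells 2 and 5. Within each well the TPM of Ephb3 was 1.18 to 1.62 times that of Ephb6 in ChR2 wells, and 3.33 to 14.7 times in wild-type wells. The pair was chosen with the opposite directions of its genes known, so the ratio is a description and no further support.

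Ephb4, the receptor for ephrin-B2 that marks veins, had opposite directions with and without wild-type wells 2 and 5. It spanned 32.4 to 42.0 CPM in ChR2 wells with a median of 34.9, and 27.4 to 72.8 CPM in wild-type wells with a median of 32.1. Wild-type wells 2 and 5, at 64.2 and 72.8 CPM, were the only wild-type wells above every ChR2 well. Over all wells its log2 fold change was −0.17 (SE 0.23, adjusted p = 0.632). Without those wells the means were 35.9 ± 3.56 CPM in ChR2 wells (n = 6) and 29.9 ± 3.06 CPM in wild-type wells (n = 4), and the log2 fold change was 0.28 (SE 0.10, adjusted p = 0.0429). When each of the 10 remaining libraries was left out in turn this call held in 2 of 10 fits, those without ChR2 well 3 or wild-type well 3, with an adjusted p of up to 0.13 in the others. The exons of Ephb4 overlap those of Zan on the opposite strand, and the library kit is not stated to keep the strand, but Zan had at most 2 counts in any well.

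Ephb2, a receptor of both crypt cells and synapses, ranged from 11.2 to 18.5 CPM in ChR2 wells and from 9.63 to 21.7 CPM in wild-type wells. The wells overlapped, and the fitted ratio of ChR2 to wild type was 0.846 with a 95% interval of 0.633 to 1.13 (adjusted p = 0.381). Without wild-type wells 2 and 5 the log2 fold change was −0.15 (adjusted p = 0.587). Ephb1, which steers axons at the optic chiasm in mice, lay near the filter at 2.34 to 5.25 CPM in ChR2 wells and 0 to 7.63 CPM in wild-type wells, with a log2 fold change of 0.14 (SE 0.45, adjusted p = 0.857). Exons of Ephb1, Efna3 and Efna4 overlap non-coding genes on the opposite strand. Those opposite Efna3 and Efna4 had at most 2 and 4 counts in any well, and the one opposite Ephb1 is not analysed here.

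Of the B-class ephrins, Efnb1 was lower in ChR2 wells. It encodes ephrin-B1, the X-linked ligand whose loss causes craniofrontonasal syndrome in humans. Efnb1 (ENSMUSG00000031217) ran from 15.6 to 23.6 CPM with a median of 18.9 in ChR2 wells, and from 24.9 to 53.7 CPM with a median of 31.8 in wild-type wells. The lines did not overlap, although ChR2 well 1 at 23.6 CPM and wild-type well 1 at 24.9 CPM were close. Its means were 19.2 ± 2.77 CPM in ChR2 wells and 34.9 ± 11 CPM in wild-type wells (SD, n = 6 each), and the fitted ratio was 0.577 with a 95% interval of 0.445 to 0.748. The log2 fold change was −0.79 (SE 0.18, adjusted p = 0.0045), and −0.65 (SE 0.15, adjusted p = 0.00426) without wild-type wells 2 and 5.

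Efnb2, the ligand for Ephb4 that marks arteries, was not called over 12 libraries. Its levels were 25.0 to 35.7 CPM with a median of 28.7 in ChR2 wells, and 17.9 to 41.0 CPM with a median of 25.6 in wild-type wells. The highest and lowest wells were both wild type, and the log2 fold change was 0.17 (SE 0.19, adjusted p = 0.526). Without wild-type wells 2 and 5 the wild-type mean was 22.6 ± 3.77 CPM (n = 4), against 30.1 ± 4.42 CPM in ChR2 wells (n = 6), and Efnb2 was higher in ChR2 wells by 0.43 on the log2 scale (SE 0.13, adjusted p = 0.0233). That call was lost when wild-type well 1 or 6 was also left out, with an adjusted p of up to 0.0633. Efnb3, a midline barrier ligand of the spinal cord, passed the filter only without wild-type wells 2 and 5. It was low, at 0.503 to 0.969 CPM in ChR2 wells and 0.357 to 2.43 CPM in all wild-type wells, and its log2 fold change in the 10 libraries was −1.22 (SE 0.42, adjusted p = 0.0349). Leaving out each of these libraries in turn kept that call in 2 of the 9 fits that still tested it, those without ChR2 well 6 or wild-type well 4, with an adjusted p of up to 0.103 in the others.

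The balance of the 2 main B-class ligands was read inside each well. Efnb1 had 0.791 to 1.42 times the TPM of Efnb2 in ChR2 wells, with a median of 0.976, and 1.19 to 2.44 times in wild-type wells, with a median of 1.97. Wild-type well 5, at 1.19, was the only wild-type well inside the ChR2 range. The same well was the exception for Ephb3 over Ephb4, whose ratio was 1.04 to 1.51 in ChR2 wells and 1.49 to 4.70 in wild-type wells. Efna5 had 0.0913 to 0.162 times the TPM of Efna1 in ChR2 wells and 0.0288 to 0.0964 times in wild-type wells, where well 6 alone reached the ChR2 range. These ratios are a description and were not tested.

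**Figure D2:**
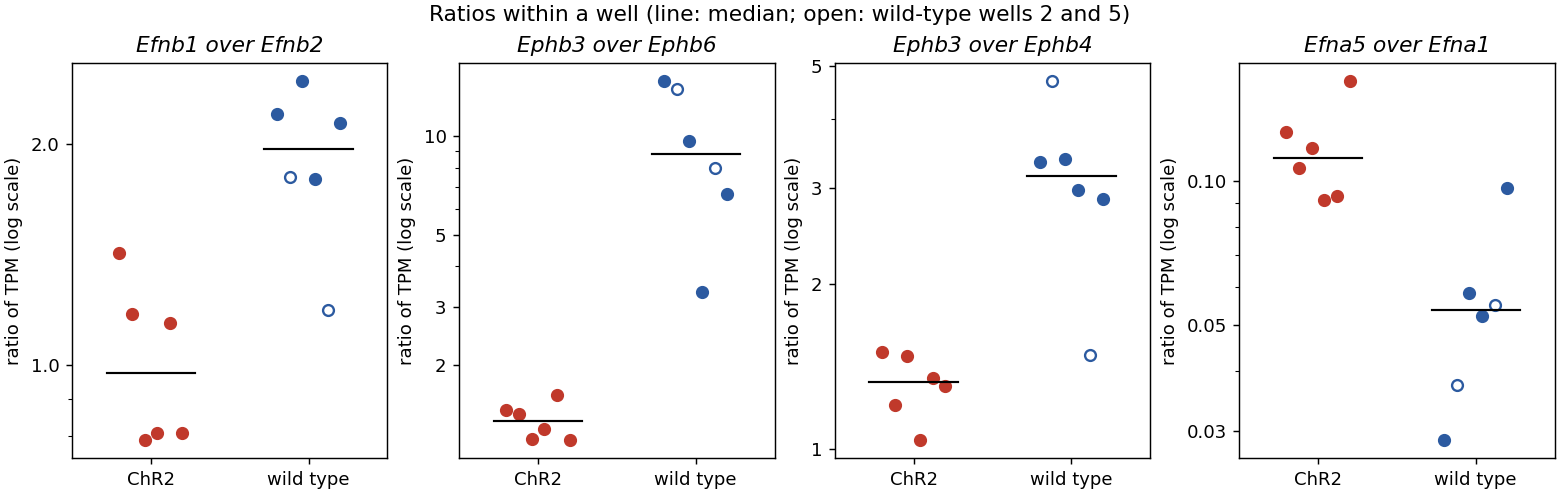
Ratio of TPM between pairs of family genes inside each well, on a log axis, for Efnb1 over Efnb2, Ephb3 over Ephb6, Ephb3 over Ephb4 and Efna5 over Efna1, with ChR2 wells left of wild-type wells. The Ephb3 over Ephb6 ratio lies between 1.18 and 1.62 in ChR2 wells and between 3.33 and 14.7 in wild-type wells, without overlap.

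Of the A-class ephrins, Efna5 was higher in ChR2 wells. Ephrin-A5 sets up the map from retina to midbrain in mice and binds EphA receptors and Ephb2. Efna5 (ENSMUSG00000048915) ran from 4.04 to 5.51 CPM with a median of 4.40 in ChR2 wells, and from 1.80 to 2.93 CPM with a median of 2.60 in wild-type wells. Every ChR2 well was above every wild-type well, at a low level throughout: in wild-type well 2 it rested on 2 counts, under the floor of 3 used here for detection. Its means were 4.51 ± 0.525 CPM in ChR2 wells and 2.44 ± 0.500 CPM in wild-type wells (SD, n = 6 each), and the fitted ratio was 1.90 with a 95% interval of 1.41 to 2.56. The log2 fold change was 0.92 (SE 0.20, adjusted p = 0.0041), and 0.99 (SE 0.21, adjusted p = 0.00283) without wild-type wells 2 and 5.

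Efna1, the ligand best known for Epha2, ranged from 11.9 to 16.6 CPM in ChR2 wells and from 10.2 to 22.3 CPM in wild-type wells. The ChR2 wells lay inside the wild-type range, with a fitted ratio of 0.885 and a 95% interval of 0.672 to 1.17 (adjusted p = 0.513). Leaving out wild-type wells 2 and 5 gave a log2 fold change of −0.05 (adjusted p = 0.862). Efna2 ranged from 3.98 to 5.33 CPM in ChR2 wells and from 1.31 to 9.28 CPM in wild-type wells, where the lowest value was 1 count in well 2. Its log2 fold change was −0.49 (SE 0.22, adjusted p = 0.103, or 0.0203 without wild-type well 2 alone). Over the same 12 libraries DESeq2's Wald test and limma voom called it lower, with adjusted p-values of 0.0384 and 0.0133. Without wild-type wells 2 and 5 Efna2 was lower in ChR2 wells by an equal amount, at −0.47 (SE 0.16, adjusted p = 0.031), and its wells no longer overlapped, which held for 25% of all genes tested there. That call held in 5 of the 10 fits that left out 1 further library, and was lost without ChR2 well 2, 3 or 6 or wild-type well 1 or 3, with an adjusted p of up to 0.085. Efna3 and Efna4 were not called over either set of libraries, with log2 fold changes of 0.41 (adjusted p = 0.427) and 0.41 (adjusted p = 0.186) over 12.

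Of the 3 EphA receptors tested, 0 were called by edgeR over either set of libraries. At an unadjusted p under 0.05, 1 was lower over 12 libraries and 1 higher without wild-type wells 2 and 5; DESeq2 called 0 and limma voom 1. Epha2, the most abundant of them, varied far less among ChR2 wells than among wild-type wells. Epha2 binds ephrin-A1 and is prominent in epithelia and many tumours. Its ChR2 wells held 56.2, 55.3, 57.0, 55.5, 53.7 and 56.0 CPM in well order, whereas wild-type wells 1 to 6 held 88.0, 97.0, 75.1, 51.2, 173 and 37.0 CPM. The ChR2 range fell inside a wild-type range that ran both above and below it. The coefficient of variation was 1.95% in ChR2 wells and 54.9% in wild-type wells, or 36.6% in the 4 wild-type wells other than 2 and 5. The ChR2 wells rested on 404 to 696 counts each, where counting error alone is larger than 1.95%. That value is therefore no measure of how uniform the ChR2 wells were. Over all tested genes its medians were 11.7% in ChR2 wells, 29.6% in wild-type wells and 16.2% in those 4, so wild-type wells were also the more variable in general, and the difference in spread was not tested. The log2 fold change of Epha2 was −0.62 (SE 0.27, adjusted p = 0.103). Leaving out wild-type well 6, the lowest, brought its adjusted p to 0.0174, whereas without wells 2 and 5 the log2 fold change was −0.16 (adjusted p = 0.547).

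Epha4, which binds ephrins of both classes and guides motor axons in the limb, ranged from 4.69 to 8.26 CPM in ChR2 wells and from 5.73 to 10.3 CPM in wild-type wells. These ranges overlapped, and its fitted ratio was 0.805 with a 95% interval of 0.606 to 1.07 (adjusted p = 0.24). Without wild-type wells 2 and 5 the log2 fold change was −0.21 (adjusted p = 0.425). Epha1, the founding member of the family, had a log2 fold change of 0.40 (SE 0.23, adjusted p = 0.204, and 0.00952 by limma voom). Its exons overlap Zyx on the opposite strand, which was abundant and higher in ChR2 wells, so reads of the pair may not be separable. Epha3, Epha7, Epha8 and Epha10 were too low to test, and Epha5 and Epha6 had 0 counts in every well.

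**Figure D3:**
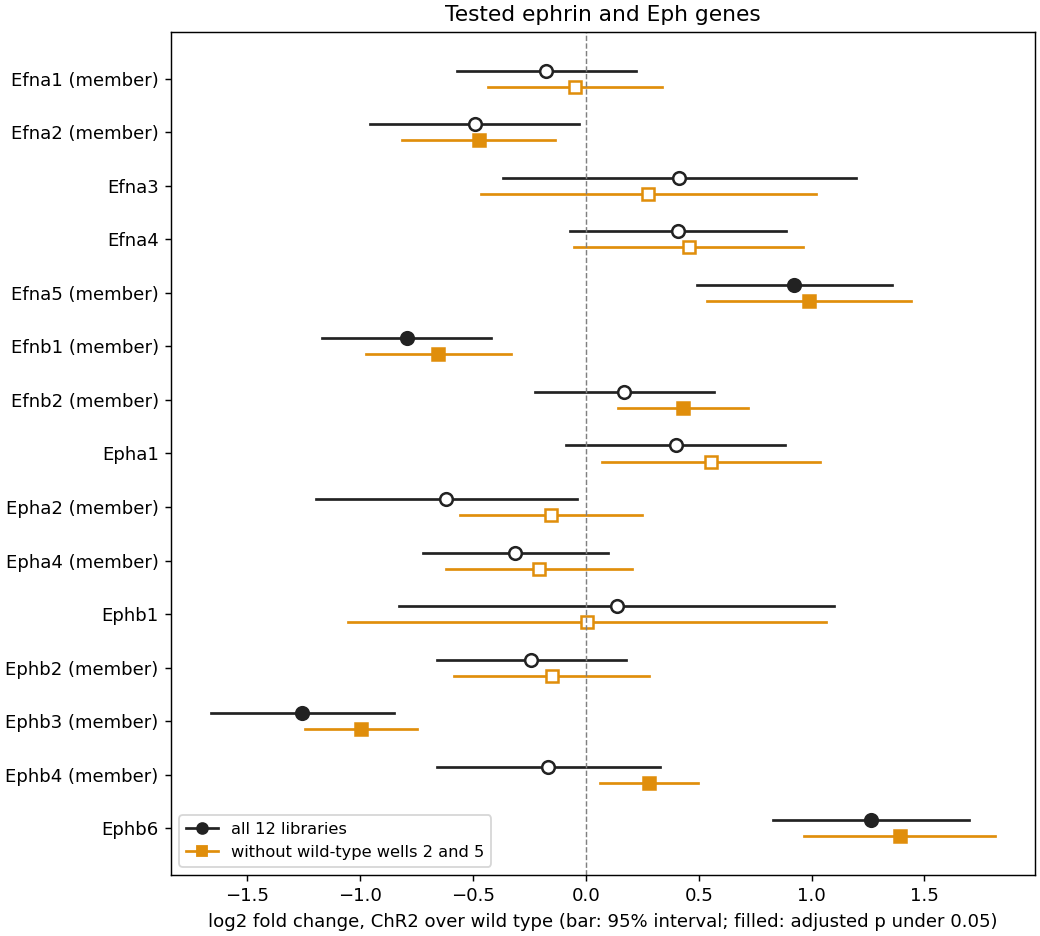
Log2 fold change, ChR2 over wild type, of the 15 family genes tested over 12 libraries (black circles) and without wild-type wells 2 and 5 (orange squares), with 95% intervals; filled symbols have an adjusted p under 0.05. Efna5 and Ephb6 lie right of 0 and Efnb1 and Ephb3 left of 0 in both sets, while Ephb4 moves across 0, with a log2 fold change of −0.17 over 12 libraries and 0.28 without these wells.

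The calls of Efna5, Efnb1 and Ephb3 ended in all 3 TPM fits over 12 libraries. In the limma fit on log2(TPM + 1) the adjusted p was 0.0646 for Efna5, 0.602 for Efnb1 and 0.081 for Ephb3, and the median log2 difference of all genes was 0.35. The TPM of wild-type wells 2 and 5 is computed with their 7SL counts included. Without these wells the same fit gave 0.0285 for Efna5, 0.0232 for Efnb1 and 0.000788 for Ephb3.

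Levels of different genes can be compared only per length, so the order of the family was taken from TPM. In ChR2 wells Epha2 led with 19.2 ± 1.79 TPM, followed by Ephb3 with 15.3 ± 2.36, Efna1 with 13.4 ± 0.890, Ephb4 with 11.6 ± 0.885 and Ephb6 with 11.4 ± 1.97 TPM (SD, n = 6). The ranges of neighbours in this order overlapped at every step down to Ephb1 at 1.29 ± 0.449 TPM, which stood clear of Efnb3 below it. In the 4 wild-type wells other than 2 and 5, Ephb3 led with 32.7 ± 7.81 TPM, before Epha2 with 23.0 ± 9.38, Efna1 with 15 ± 5.55, Efnb1 with 14.0 ± 3.61 and Ephb4 with 10.3 ± 1.69 TPM (SD, n = 4). Ephb4 stood clear of the next gene in order, Efnb2, at 6.55 ± 1.34 TPM, whereas each of the leading genes overlapped its neighbour.

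Summed by class, the TPM of the family was divided as follows. EphB receptors took 38.7% ± 2.14 of the family's TPM in ChR2 wells and 43.2% ± 7.45 in wild-type wells, and EphA receptors 22.2% ± 1.18 in ChR2 wells and 22.8% ± 6.69 in wild-type wells (SD, n = 6 each). Ephrins of the A class took 23.7% ± 2.27 in ChR2 wells and 18.4% ± 4.44 in wild-type wells, and those of the B class 15.4% ± 1.36 in ChR2 wells and 15.6% ± 1.83 in wild-type wells. In the 4 wild-type wells other than 2 and 5 the shares were 41.8% ± 5.26 for EphB and 21.1% ± 2.91 for EphA receptors. There they were 20.6% ± 3.57 for ephrins of the A class and 16.5% ± 1.31 for those of the B class. The ranges of the lines overlapped in all 4 classes with and without wells 2 and 5, and the differences in share were not tested. Inside the EphB class the shares of Ephb3 and Ephb6 did not overlap over all wells, while those of Ephb1, Ephb2 and Ephb4 did. Without wild-type wells 2 and 5 the shares of Ephb4 did not overlap either. They were 23.5 to 31.5% in ChR2 wells and 18.1 to 20.5% in the 4 remaining wild-type wells. Ephb3 made up 32.7 to 37.2% of the class TPM in ChR2 wells and 50.6 to 73.9% in wild-type wells. Ephb6 made up 22.9 to 29.2% in ChR2 wells and 4.66 to 16.2% in wild-type wells. The shares of Ephb3 and Ephb6 describe genes already called, and none of the shares carries a test of its own.

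**Figure D4:**
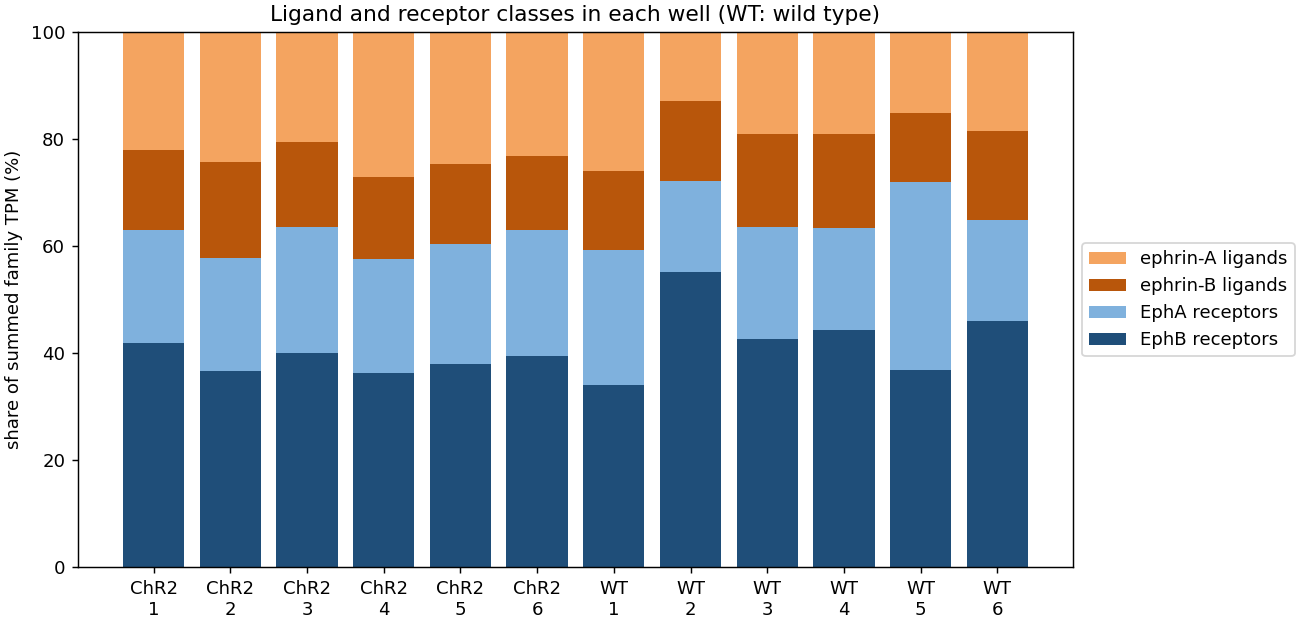
Share of the family's summed TPM taken by ephrin-A ligands, ephrin-B ligands, EphA receptors and EphB receptors in each well, as stacked bars in percent from 0 to 100, with the 6 ChR2 wells left of the 6 wild-type (WT) wells. EphB receptors average 38.7% in ChR2 wells and 43.2% in wild-type wells, and their ranges overlap.

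Genes that act with Ephs and ephrins were followed in 3 lists. Of 22 kinases and adaptors that Eph receptors recruit, 20 were tested and 5 were lower in ChR2 wells, while 0 were higher at an adjusted p under 0.05 by edgeR over 12 libraries. At an unadjusted p under 0.05 there was 1 higher, and DESeq2's Wald test called 1 higher and limma voom 3. Those 5, or 25% beside 28.1% of all genes, were Shc1, Abl2, Crkl, Grb10 and Stat3. Shc1, an adaptor, averaged 131 ± 5.73 CPM in ChR2 wells and 262 ± 85.3 CPM in wild-type wells (SD, n = 6 each), with a 95% interval of the fitted ratio of 0.377 to 0.664 (adjusted p = 0.00187). Abl2, a kinase that acts on the actin cytoskeleton, averaged 58.2 ± 7.54 CPM in ChR2 wells and 154 ± 83.3 CPM in wild-type wells, with a log2 fold change of −1.38 (adjusted p = 0.00274). The list's median log2 fold change was −0.28, beside −0.02 for all genes. With wild-type wells 2 and 5 left out it had 3 genes higher and 7 lower, or 50% beside 35.2% of all genes, and a median of −0.12.

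Reverse signalling from B-class ephrins was followed through 13 partners, of which 10 were tested, and 1 was higher and 2 were lower in ChR2 wells, or 30% beside 28.1% of all genes. Sdcbp, or syntenin, which binds the tail of B-class ephrins, was higher at 132 ± 8.96 CPM in ChR2 wells, against 93.6 ± 24.7 CPM in wild-type wells (adjusted p = 0.0365). Fgfr1, a receptor kinase that can phosphorylate that tail, was lower at 122 ± 9.07 CPM in ChR2 wells, against 175 ± 31.5 CPM in wild-type wells (adjusted p = 0.00753). Stat3, a transcription factor which is also in the first list, was lower too, at 119 ± 11.6 CPM in ChR2 wells, against 161 ± 30.0 CPM in wild-type wells (adjusted p = 0.0221).

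Among 19 proteases and phosphatases that cut or silence the pair, 16 were tested, and 2 were higher and 1 lower, or 18.8% beside 28.1% of all genes. Both higher genes were matrix metalloproteinases. Mmp2 averaged 173 ± 24.7 CPM in ChR2 wells and 50.7 ± 16.0 CPM in wild-type wells, with a log2 fold change of 1.77 (adjusted p = 4.02e-05). Mmp14, which activates Mmp2 and cleaves Epha2, averaged 181 ± 11.3 CPM in ChR2 wells and 124 ± 24.0 CPM in wild-type wells, with a log2 fold change of 0.54 (adjusted p = 0.00635). Psen2, a catalytic subunit of gamma-secretase, was lower at 16.5 ± 2.90 CPM in ChR2 wells, against 30.6 ± 13.1 CPM in wild-type wells (adjusted p = 0.0169).

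All 8 partner genes given with values were called in the same direction without wild-type wells 2 and 5. Over the 12 libraries Stat3 lost its call without ChR2 well 4 (adjusted p = 0.052). For Sdcbp the call ended when ChR2 well 1, 3, 4, 5 or 6 or wild-type well 6 was left out, with an adjusted p of up to 0.0771.

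**Figure D5:**
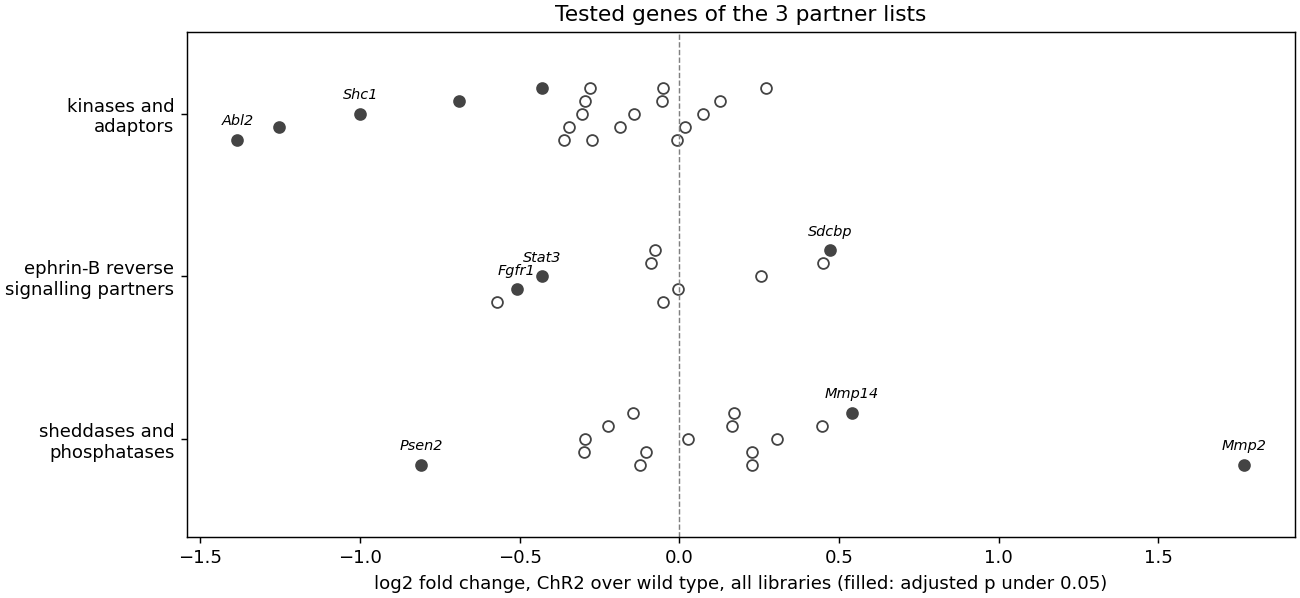
Log2 fold change, ChR2 over wild type over 12 libraries, of the tested genes in the 3 lists of partners, with 1 point per gene and small vertical offsets for legibility; filled points have an adjusted p under 0.05. Abl2 lies farthest left, at −1.38, and Mmp2 farthest right, at 1.77; Stat3 appears in 2 lists.

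The genes whose profile over the 12 wells was most like that of a called family gene were found by the root-mean-square difference of centred log2 CPM. For Ephb3, which spanned 2.2 log2 units, they were Kank1 at 0.134, Fam171a2 at 0.145 and Trim63, a muscle ubiquitin ligase, at 0.149 log2 units. For Efnb1, with a span of 1.77 log2 units, the named ones were Map7d1 at 0.150 and Rhobtb2 at 0.156. For Efna5, with a span of 1.5 log2 units, they were Reep4 at 0.185, Cpe at 0.194 and Fam110b at 0.209. The choice of the nearest profiles fixes that they share the direction of the gene they resemble.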

How the data were processed

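Libraries from 6 ChR2 and 6 wild-type wells were grouped by the genotype label. Per the labels' protocols, poly(A)+ RNA was turned into libraries with 14 cycles of PCR and sequenced from both ends over 50 bases; low-input samples, which are not named, went through ribosomal depletion. The authors deposited estimated counts per gene and TPM for the same genes. Tools named in the submitters' processing notes are Salmon, STAR, bedtools 2.25.0 and BWA 0.7.12-r1039, with their roles not given in the sources used here. Gene names came from the deposited tables, and overlaps of exons from GENCODE vM21.

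Estimated counts were rounded. edgeR 4.0.16 (R 4.3.3) was run with filterByExpr (minimum count 10), TMM scaling and the robust quasi-likelihood test of genotype over all genes, and Benjamini-Hochberg adjusted p under 0.05 was called. The same fit was repeated without wild-type wells 2 and 5. Levels are CPM on TMM-scaled sizes, with a detection floor of 3 counts. Reads were amplified without molecular identifiers, and depth therefore bounds no more than the counting error. Alternatives used other scalings, filters and tests (DESeq2 1.42.0, and limma 3.58.1 with voom or on log2(TPM + 1) and log2(TPM + 0.1)), a replicate block, and each library left out. The fit was tested on simulated data.

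Genes, lists and tests were chosen with earlier results of these data known. Named genes were the 10, other tested family genes, up to 2 called rises and 2 falls per list with the smallest p, and the 3 nearest profiles of each called gene; Crkl, Grb10 and marker genes named outside this rule were chosen after their values were seen. A further list of partners and 1 nearest profile are not reported here. Promoter sequences are RefSeq's, and 21 of the 22 family genes matched. No 2 libraries of a line agreed within counting noise. Per-sample columns left unused numbered 0.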

Additional observations from a re-analysis of the deposited data

Results flagged for a closer look

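The level of each of the 15 tested family genes was examined in each line for a well far from the other 5, which made 30 groups. In 2 of them the gap between the highest well and its nearest neighbour, as a share of the group's range, was above Dixon's 95% critical value, and chance alone flags about 1 group in 20. Efna5 reached 5.51 CPM in ChR2 well 6, and without that well its log2 fold change was still called. Ephb2 reached 18.5 CPM in ChR2 well 1, and was called neither with that well nor without it.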

How the results depend on the processing

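Efna5, Efnb1 and Ephb3 kept their direction under all 24 alternatives and their calls under 21, and lost them in the 3 TPM fits over 12 libraries. Ephb6 kept its call in all 24. Among the 10 genes, calls numbered 3 in the main fit, 3 to 4 when 1 library was left out, 4 by DESeq2's Wald test and by voom, 6 without wild-type wells 2 and 5, and 0 in the 3 TPM fits. In the whole family they numbered 4 in the main fit, 4 to 5 with 1 library left out, 8 without those wells and 1 in the TPM fits. The cause of these shifts was not tested.

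For kinases and adaptors 10 were called without wild-type wells 2 and 5, 8 by DESeq2's Wald test, 11 by voom, 0 in the TPM fits and 4 to 7 with 1 library left out. For reverse signalling they were 1 with no filter, 0 in the TPM fits, 1 in the TPM fit without wells 2 and 5, and 1 to 5 with 1 library left out. For sheddases and phosphatases they were 6 without those wells, 6 by voom, 1 in the TPM fits and 3 to 5 with 1 library left out. Over all genes the TPM fits called 607 with a pseudocount of 1, 257 with 0.1 and 458 with no filter, beside 3701. The TPM fit without wild-type wells 2 and 5, added after seeing the data, called 3395.

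Genes outside the calls changed sign in places. In the TPM fits with pseudocounts of 1 and 0.1 the log2 differences were 0.21 and 0.24 for Efna1, 0.0253 and 0.0634 for Epha4, 0.10 and 0.15 for Ephb2, and 0.26 and 0.30 for Ephb4. Leaving out the TPM filter gave 0.21, 0.0253, 0.10 and 0.26 for these. Over all genes the median log2 difference was 0.35 with a pseudocount of 1, 0.43 with 0.1 and 0.0757 with no filter. Efna2 turned to 0.17 with a pseudocount of 0.1. The TPM fit without wells 2 and 5 gave 0.0404 for Epha4 and 0.17 for Ephb4, where the median of all genes was −0.0834. Ephb4 was 0.28 without those wells by edgeR, 0.12 by voom, and −0.27 to 0.11 with 1 library left out of 12. Ephb1 ran from −0.13 to 0.68 with 1 library left out of 12. With 1 library left out of the 10, also added after seeing the data, Ephb1 ran from −0.36 to 0.62, Efna1 from −0.18 to 0.16, Epha2 from −0.34 to 0.0279 and Ephb2 from −0.33 to 0.0492.

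Wells of 1 number did not pair across the lines (correlations of −0.144 to 0.0954), and the replicate block called 2641 genes, 3 of the 10 and 4 of the family; Stat3 had an adjusted p of 0.0571 with it. Requiring 1 CPM in 6 libraries kept the same 13168 genes. Depth limits Efna5 and Efna2 in wild-type well 2, where 3 counts equal 3.93 CPM.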
